A study of Rattus norvegicus with 24 samples.

Results

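The set described here is 8 genes of 23950 gene rows in the deposited tables, namely Shc3, Ppp1r9a, Lhfpl4, Elfn2, Strn, Atxn1, Ndst1 and Lrrc58. They were chosen by name on their higher expression in F1 pups exposed to oxycodone (oxy) in utero (IUO) than in F1 pups exposed postnatally (PNO), so every F1 difference below is a description without a test. All tests below were run on F2, whose values were not part of that rule. The genes and lists were nevertheless chosen with earlier results of these data known. All 8 genes passed the filter on low values in each comparison.

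RNA-seq was run on the nucleus accumbens (NAc), a striatal region of the reward pathway, of Sprague Dawley rats at postnatal day 14. The 24 libraries comprised 4 pups from separate litters in each of 6 groups, IUO, PNO and saline (SAL) in F1 and in F2. For the IUO groups, F0 females received oral oxy at 10 mg/kg/day for 5 days and then steps of 0.5 mg/kg/day over 10 days to 15 mg/kg/day, and dosing went on through mating, gestation and parturition to weaning. F1 IUO pups therefore also nursed from dosed dams at the age sampled. For the PNO groups, F0 dams received 15 mg/kg/day from parturition to weaning. F1 animals were never dosed themselves, and F2 pups came from undosed F1 females of each condition mated with males from outside the experiment. The sex of each pup was not given in the labels.

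Most of these genes act at or near the synapse. Excitatory and inhibitory synapses are built from receptors held in place by scaffolds and adhesion proteins, and growth factor receptors pass signals to the cell through adaptors. Shc3 is a neuronal adaptor of the Shc family that links receptor tyrosine kinases to Ras signaling. Ppp1r9a encodes neurabin, an actin-binding scaffold of dendritic spines that binds protein phosphatase 1. Lhfpl4 binds GABA-A receptors and holds them at inhibitory synapses. Elfn2 is a postsynaptic adhesion protein that binds group III metabotropic glutamate receptors across the synapse. Strn encodes striatin, a scaffold subunit of a protein phosphatase 2A complex. Atxn1 encodes ataxin-1, a nuclear protein that works with the repressor Capicua. Ndst1 is a Golgi enzyme that sulfates heparan sulfate chains. Lrrc58 encodes a leucine-rich repeat protein. In the annotation inside the deposited tables, 5 of the 8 genes carried a gene ontology term naming a neural structure or process, while Lhfpl4, Elfn2 and Lrrc58 carried none. Each of the 8 rows listed 1 transcript.

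Promoter sequences are shown for 3 of the 8 members, and the part of promoter sequence in the members' expression was not tested. RefSeq windows on the GRCr8 build, of 300 bases around the annotated start, were found for all 8 members (11 windows, of which Elfn2 had 4). Capitals mark letters of the motifs searched on both strands, which were the GC box GGGCGG, the CCAAT box CCAAT, the TATA box TATAAA, the cAMP response element TGACGTCA and its shorter core TGACG, the last being contained in the full element. The window of Shc3 lies on chromosome 17 (chr17:13803730-13804029, plus strand), that of Strn on chromosome 6 (chr6:22087259-22087558, plus strand) and that of Lrrc58 on chromosome 11 (chr11:76368260-76368559, minus strand).
Shc3: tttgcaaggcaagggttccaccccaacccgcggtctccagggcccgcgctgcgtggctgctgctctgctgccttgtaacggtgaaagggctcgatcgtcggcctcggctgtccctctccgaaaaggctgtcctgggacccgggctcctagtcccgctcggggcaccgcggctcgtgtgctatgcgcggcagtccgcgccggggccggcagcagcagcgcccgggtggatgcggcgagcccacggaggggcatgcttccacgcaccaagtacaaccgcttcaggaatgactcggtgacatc
Strn: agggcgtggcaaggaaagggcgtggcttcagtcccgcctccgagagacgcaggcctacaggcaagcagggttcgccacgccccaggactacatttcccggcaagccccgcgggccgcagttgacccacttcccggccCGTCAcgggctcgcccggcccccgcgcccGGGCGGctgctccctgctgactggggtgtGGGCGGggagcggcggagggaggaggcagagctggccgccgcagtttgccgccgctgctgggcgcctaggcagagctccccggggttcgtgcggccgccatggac
Lrrc58: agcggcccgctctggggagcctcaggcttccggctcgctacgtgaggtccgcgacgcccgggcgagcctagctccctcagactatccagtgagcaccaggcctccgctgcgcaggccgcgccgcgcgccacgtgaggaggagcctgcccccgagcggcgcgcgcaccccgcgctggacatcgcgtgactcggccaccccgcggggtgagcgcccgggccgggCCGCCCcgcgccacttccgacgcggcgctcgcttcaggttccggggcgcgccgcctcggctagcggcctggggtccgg

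The windows of the members were rich in G and C. Their GC content ran from 51.0% to 78.0%, and 10 of the 11 lay above the median of 51.7% over 33469 windows. A GC box was found in 6 of the 8 members (Ppp1r9a, Elfn2, Strn, Atxn1, Ndst1 and Lrrc58) and in 33.1% of all windows. The core TGACG was found in Elfn2, Strn and Ndst1, against 21.2% of all windows, and the full element in 0 of 8 members against 1.83%. A CCAAT box was found only in Elfn2 among the 8 (37.5% of all windows), and a TATA box in none of the 8 (14.2% of all windows). Members with several windows had more letters to match than most genes, and these counts are descriptions of the letters only.

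Expression was deposited as FPKM, a level scaled to transcript length and library size, so levels can be set beside each other between genes. Between libraries, levels also depend on the make-up of each library, which this scaling does not correct. Read counts were not used here and sequencing depth is unknown. The FPKM of all genes summed to between 535866 and 766781 per library, and between 4782 and 7532 genes were listed at 0. Striatal markers were present in every library, with Ppp1r1b, which encodes DARPP-32, at 167.35 to 549.36 FPKM and Drd2 at 15.78 to 69.19 FPKM. The cortical excitatory neuron marker Slc17a7 was also present, at 3.94 to 276.94 FPKM with a median of 164.3. The choroid plexus marker Ttr ranged from 1.75 to 12103.13 FPKM. F2 PNO library 1 and F2 IUO library 4 stood apart from the other 22 libraries. On the first principal component (20.8% of the variance) they scored 97.5 and 79.0, against -30.7 to 12.9 in the other libraries. They also had the highest FPKM sums (766781 and 709207) and summed FPKM of ribosomal protein genes of 35166 and 33416, against 19601 to 34004 in the others. The F2 results of the 8 genes are given with and without them.

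**Figure D1:**
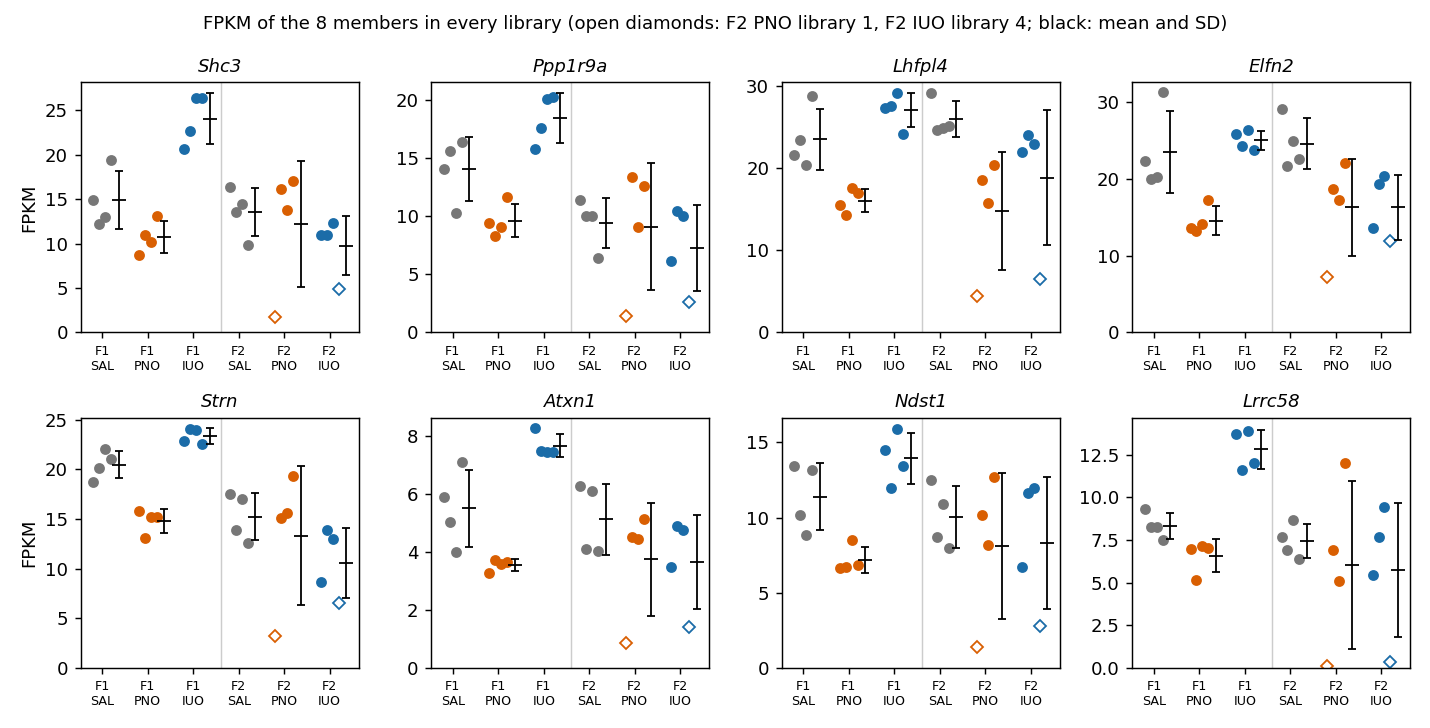
FPKM of each of the 8 genes (y axis, linear, from 0) in the 24 libraries, 1 symbol per library, by group (x axis), with the mean and SD in black beside each group. All 4 F1 IUO libraries lie above all 4 F1 PNO libraries in every panel, and the open diamonds, F2 PNO library 1 and F2 IUO library 4, are the lowest F2 values in every panel.

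In F1, the 8 genes were higher in the IUO group than in the PNO group by 1.58-fold (Strn) to 2.24-fold (Shc3), and saline pups lay in between. The genes' difference from saline was in opposite directions in the exposed groups. The median log2 difference of the 8 genes was 0.94 for IUO against PNO, 0.35 for IUO against SAL and -0.54 for PNO against SAL. Over all genes tested, the medians of the same differences were 0.03, 0.01 and -0.05. These 3 comparisons share groups, so they are not independent of each other. Every library of IUO lay above every library of PNO for 8 of 8 genes, which the choice of the genes fixes, and for 6.26% of all 17306 genes tested. Every IUO library lay above every SAL library for 4 of 8 (Shc3, Strn, Atxn1 and Lrrc58), against 1.17% of all genes. This count was 7 of 8 without F1 SAL library 4 and 3 of 8 after libraries were rescaled to their upper quartile. Every PNO library lay below every SAL library for 6 of 8 (all but Shc3 and Ppp1r9a), against 4.8% of all genes.

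Shc3, the adaptor, showed the widest gap. Its FPKM was 20.65, 22.66, 26.42 and 26.37 in the F1 IUO libraries, 8.71, 10.96, 10.15 and 13.1 in F1 PNO, with F1 SAL at 14.88, 12.21, 13.01 and 19.45. The IUO values stood above all saline values, and 1 PNO library (13.1) reached into the saline range. The log2 difference was 1.16 ± 0.15 (SE) for IUO against PNO, 0.70 ± 0.16 for IUO against SAL and -0.46 ± 0.17 for PNO against SAL.

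Among the postsynaptic scaffolds, neurabin and striatin differed in how far saline sat from the exposed groups. Ppp1r9a averaged 18.4 ± 2.14 FPKM (SD, n = 4) in F1 IUO, 9.58 ± 1.42 in F1 PNO, with F1 SAL at 14.1 ± 2.74. The saline libraries of Ppp1r9a ran from 10.23 to 16.39 and overlapped both exposed groups. Strn was at 22.89, 24.1, 23.97 and 22.53 FPKM in F1 IUO, 15.83, 13.05, 15.17 and 15.19 in F1 PNO, with F1 SAL at 18.73, 20.12, 22.02 and 21.04. The 3 F1 groups of Strn did not overlap, although the log2 difference from saline was only 0.19 ± 0.09 (SE) in IUO against -0.47 ± 0.10 in PNO.

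Lhfpl4 and Elfn2 encode the receptor-binding membrane proteins. Like Ppp1r9a, Strn, Atxn1 and Ndst1, they had log2 differences farther below saline in PNO than above it in IUO, so for 6 of the 8 genes. Without F1 SAL library 4 this no longer held for Ppp1r9a (0.48 in IUO, -0.46 in PNO) and Atxn1 (0.63 in IUO, -0.46 in PNO). Lhfpl4 was at 27.35, 27.56, 29.13 and 24.17 FPKM in F1 IUO, 15.49, 14.31, 17.54 and 16.94 in F1 PNO, with F1 SAL at 21.57, 23.48, 20.37 and 28.75. Elfn2 was at 25.8, 24.32, 26.34 and 23.73 FPKM in F1 IUO, 13.58, 13.19, 14.1 and 17.32 in F1 PNO, with F1 SAL at 22.32, 19.99, 20.23 and 31.39. For both genes the IUO and saline ranges overlapped while all PNO values lay below all saline values. The log2 difference of Elfn2 was 0.12 ± 0.15 (SE) for IUO against SAL and -0.67 ± 0.16 for PNO against SAL, and that of Lhfpl4 was 0.21 ± 0.13 and -0.54 ± 0.12.

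Atxn1, Ndst1 and Lrrc58 followed the same order of group means. Atxn1 was at 8.25, 7.47, 7.44 and 7.45 FPKM in F1 IUO, 3.26, 3.71, 3.58 and 3.64 in F1 PNO, with F1 SAL at 5.9, 5.02, 3.98 and 7.11. Its exposed groups were narrow, and the saline values filled the space between them without touching either. Lrrc58 was at 13.73, 11.62, 13.87 and 12.01 FPKM in F1 IUO, 6.99, 5.15, 7.12 and 7.04 in F1 PNO, with F1 SAL at 9.3, 8.24, 8.25 and 7.49. Of the 8 genes, Lrrc58 was the closest to saline in PNO (log2 difference -0.34 ± 0.14, SE) and, after Shc3, the farthest above saline in IUO (0.62 ± 0.12). Ndst1 averaged 13.9 ± 1.69 FPKM (SD, n = 4) in F1 IUO, 7.19 ± 0.872 in F1 PNO, with F1 SAL at 11.4 ± 2.25, and its IUO and saline values overlapped.

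Some cell type markers also separated F1 IUO from F1 PNO. The summed FPKM of 18 striatal projection neuron markers was 1368.08 to 1861.07 in F1 IUO and 892.67 to 1201.48 in F1 PNO, without overlap, and 7 of the 18 genes separated in that direction with none in the other. Over all genes, 6.26% separated in that direction and 4.2% in the other. The sums also separated for 8 hypothalamic markers (46.1 to 162.08 in IUO, 5.49 to 15.23 in PNO, 3 of 8 genes) and for 8 microglial markers (183.84 to 217.69 in IUO, 130.21 to 165.68 in PNO, 3 of 8 genes). The sum of 12 pan-neuronal markers overlapped between the groups, with 2 of the 12 lower in every IUO library. Of these lists, Pmch, Otp and Sim1 were at 0 in at least 1 of the 8 libraries, and no list was at 0 throughout. The sums of the thalamic, cortical, choroid plexus, blood, oligodendrocyte, astrocyte and endothelial lists overlapped. Against F1 SAL, the sum of every list overlapped for IUO and for PNO, and the striatal sum in SAL ran from 882.75 to 2112.33. The cortical sum in SAL ran from 14.25 to 337.13. For IUO against SAL, 0 markers of any list separated, while 1.17% of all genes were wholly higher in IUO. For PNO against SAL, 3 of 12 pan-neuronal markers were wholly higher in PNO. The share of all genes in that direction was not computed. In the same comparison 2 of 8 microglial markers were wholly lower, beside 4.8% of all genes. In bulk tissue, fewer cells of a type and less RNA per cell cannot be told apart, and the part of these markers in the members' differences was not tested.

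**Figure D2:**
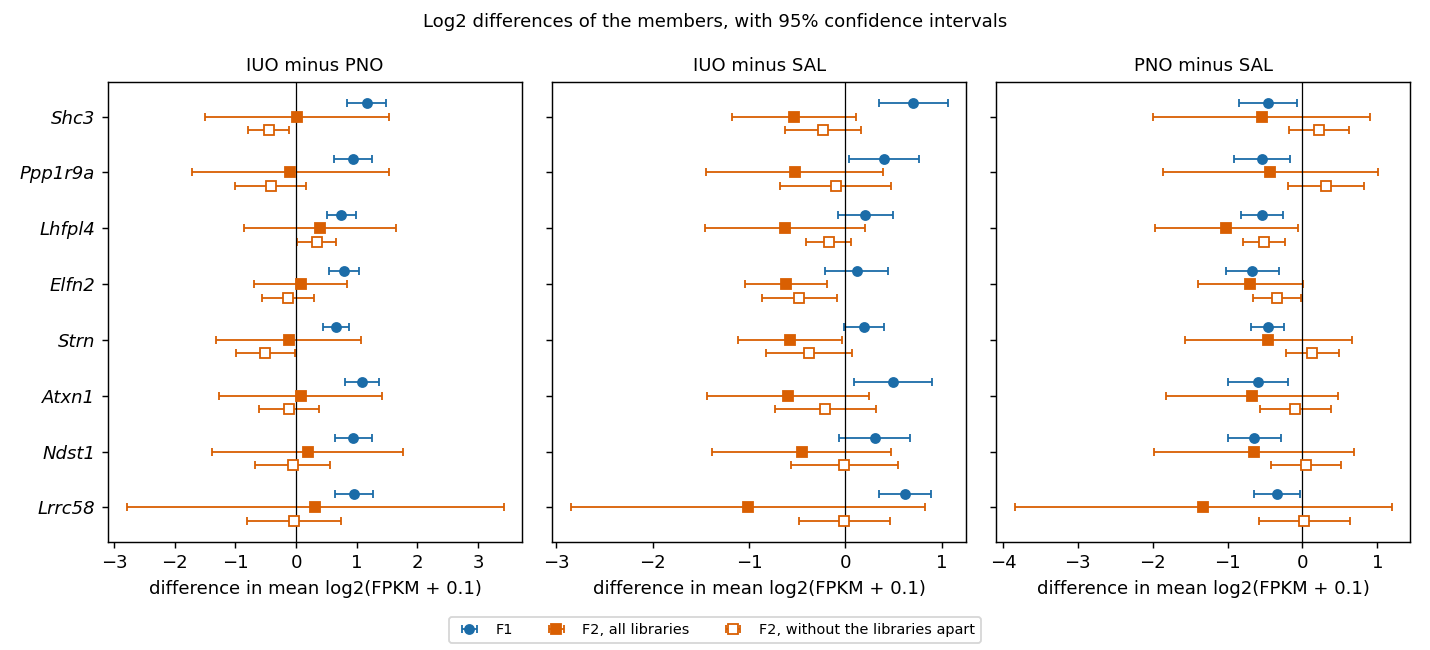
Difference in mean log2(FPKM + 0.1) (x axis) for each of the 8 genes (y axis), with 95% confidence intervals, in 3 panels for IUO minus PNO, IUO minus SAL and PNO minus SAL. Circles are F1, filled squares F2 with all libraries and open squares F2 without the libraries that stood apart. The genes were chosen on F1 values, so the F1 intervals describe spread and are not to be read as tests against 0. The F1 values run from 0.66 to 1.16 in the first panel, and the F2 intervals with all libraries reach from -2.79 to 3.42.

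In F2, the pattern by which the genes were chosen was not seen. With all libraries, 0 of 8 genes differed between IUO and PNO at an adjusted p under 0.05 by limma (0.0% of 17090 genes tested), and 0 of 8 at an unadjusted p under 0.05 (7.07% of genes). The smallest adjusted p among the 8 was 0.93. The log2 differences ran from -0.12 (Strn) to 0.39 (Lhfpl4), with a median of 0.08 beside -0.01 over all genes, and 6 of the 8 were above 0. The groups overlapped for all 8 genes, and IUO lay wholly above or wholly below PNO for 4.74% of all genes. The 95% intervals were wide, for Shc3 from -1.50 to 1.53 and for Lrrc58 from -2.79 to 3.42. They held the gene's F1 difference for 8 of 8 genes, so this fit cannot exclude a difference of that size. Without the 2 libraries that stood apart, 0 of 8 intervals held it. The F1 differences are those on which the genes were chosen. Whether the F1 and F2 differences differed from each other was not tested, since F1 had chosen the genes.

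The lowest F2 values were those of the 2 libraries that stood apart. Shc3 was at 10.94, 10.96, 12.26 and 4.89 FPKM in F2 IUO, 1.77, 16.18, 13.75 and 17.05 in F2 PNO, and 16.32, 13.59, 14.5 and 9.88 in F2 SAL. The low values, 4.89 and 1.77, came from IUO library 4 and PNO library 1. Lrrc58 was at 5.44, 7.64, 9.43 and 0.36 FPKM in F2 IUO, 0.08, 6.88, 5.08 and 12 in F2 PNO, and 7.67, 6.93, 8.69 and 6.38 in F2 SAL. Its value in PNO library 1 was 63.5 times below the lowest of the 10 other F2 libraries, the largest such gap of the 8 genes, and in IUO library 4 it was 14.1 times below. Elfn2 had the smallest gaps, at 1.88 and 1.14 times.

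Without both libraries, the F2 differences between IUO and PNO were mostly below 0. The median was -0.12, 7 of 8 genes were below 0, and 3 of 8 had an unadjusted p under 0.05 (7.88% of 16628 genes), of which Shc3 and Strn were lower and Lhfpl4 higher in IUO. Shc3 averaged 11.4 ± 0.756 FPKM (SD, n = 3) in IUO and 15.7 ± 1.71 in PNO. Its log2 difference was -0.45 ± 0.14 (SE), the opposite of the F1 direction, with an adjusted p of 0.63 by limma. Strn differed by -0.51 ± 0.21 and Lhfpl4 by 0.34 ± 0.14, both also at an adjusted p of 0.63. None of the 8 passed the adjusted threshold. The interval of Lhfpl4, from 0.02 to 0.66, was the only one of the 8 that lay wholly above 0. With 3 libraries against 3, the exact permutation test cannot give a p below 0.1, and Shc3, Strn and Lhfpl4 were each at that limit.

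Against saline, all 8 genes had lower means in F2 IUO, and 0 of 8 passed an adjusted p of 0.05 (0.0% of 17097 genes). The median log2 difference was -0.59, beside -0.08 over all genes, and it was -0.19 without IUO library 4. At an unadjusted p under 0.05, 2 of 8 genes were called (8.49% of all genes), namely Elfn2 and Strn. Elfn2 was at 13.58, 19.4, 20.39 and 11.89 FPKM in F2 IUO and 29.11, 21.64, 25 and 22.6 in F2 SAL. All IUO values of Elfn2 lay below all saline values, a log2 difference of -0.62 ± 0.19 (SE) with an adjusted p of 0.50 by limma. The exact two-sided permutation test of Elfn2 gave p = 0.0286, the smallest that 4 against 4 allows. Without IUO library 4 the difference of Elfn2 was -0.48 ± 0.17, with an adjusted p of 0.59 by limma. Elfn2 was then the only 1 of the 8 called at the unadjusted threshold (7.7% of genes), and Strn moved from -0.58 ± 0.24 to -0.37 ± 0.20. Lhfpl4 also lay wholly below saline in both fits, and IUO lay wholly above or below saline for 5.11% of all genes.

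In F2 PNO against saline, all 8 genes again had lower means, with a median log2 difference of -0.66 beside -0.08 over all genes, and 0 of 8 passed the adjusted threshold (0.00576% of 17367 genes, which is 1 gene). The median became 0.03 without PNO library 1, and 5 of the 8 genes then lay above 0. Lhfpl4 alone was called at an unadjusted p under 0.05 with all libraries (10.8% of all genes). It was at 4.43, 18.56, 15.71 and 20.37 FPKM in F2 PNO and 29.23, 24.62, 24.9 and 25.19 in F2 SAL. The groups of Lhfpl4 did not overlap, as was so for 7.01% of all genes, and the log2 difference was -1.02 ± 0.42 (SE) with an adjusted p of 0.44 by limma. The exact two-sided permutation test of Lhfpl4 gave p = 0.0286, again the smallest possible. Without PNO library 1, Lhfpl4 differed by -0.51 ± 0.13 with an adjusted p of 0.31 by limma. Elfn2 was then also called at the unadjusted threshold (-0.35 ± 0.14, adjusted p of 0.40 by limma), as were 11.7% of genes. Lhfpl4, Elfn2 and Atxn1 had a lower mean than saline in F1 PNO, F2 PNO and F2 IUO, with and without the libraries that stood apart. In F1 PNO all 8 genes were lower. For Atxn1 without those libraries, the F2 log2 differences were only -0.10 ± 0.21 (SE) in PNO and -0.21 ± 0.23 in IUO. Both F2 comparisons used the same saline libraries, and no adjusted p of Lhfpl4, Elfn2 or Atxn1 in F2 passed the threshold.

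Across the 6 groups, F1 IUO had the highest mean for 8 of 8 genes, which reflects how they were chosen. F1 SAL came next for 6 genes and F2 SAL for 2, Lhfpl4 and Elfn2. The lowest mean was in F2 IUO for 4 genes (Shc3, Ppp1r9a, Strn and Lrrc58), in F1 PNO for 3 (Elfn2, Atxn1 and Ndst1) and in F2 PNO for Lhfpl4. Without the 2 libraries that stood apart, F1 PNO was lowest for 6 genes and F2 IUO for 2 (Ppp1r9a and Strn). For Shc3, Strn and Atxn1, every F1 IUO library was above all 20 other libraries, which the choice on F1 IUO values favours. The share of all genes was not computed for this count, nor for the comparison of saline groups that follows. The saline groups of the generations overlapped for 7 of 8 genes, the exception being Strn, which was higher in every F1 saline library (20.5 ± 1.40 FPKM, SD, n = 4) than in every F2 saline library (15.2 ± 2.40).

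**Figure D3:**
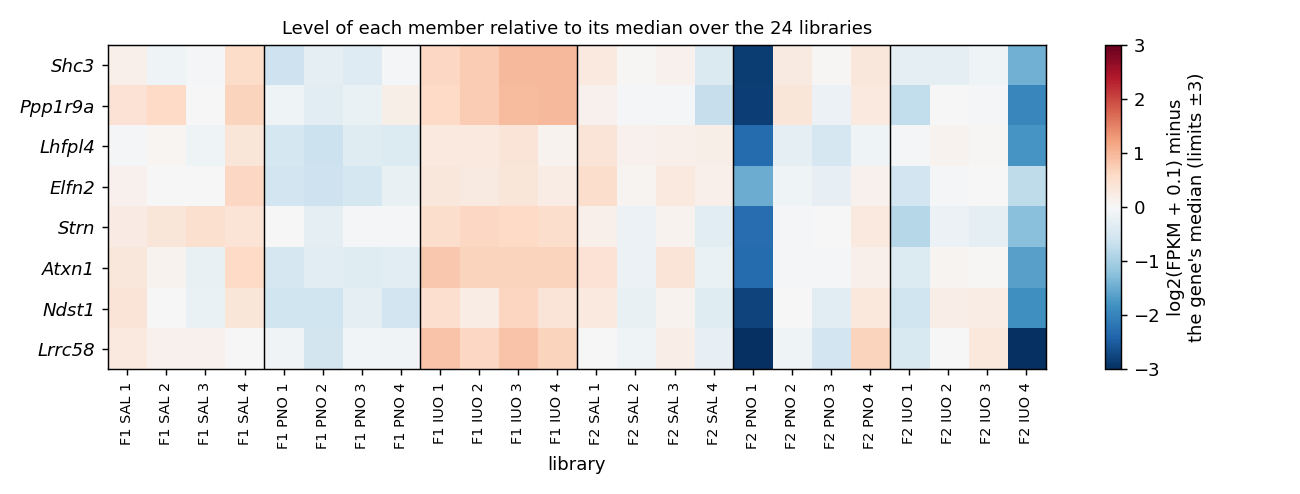
Level of each gene (rows) in each library (columns) as log2(FPKM + 0.1) minus the gene's median over the 24 libraries, with colour limits at -3 and 3. In F1, all 32 IUO values are above the gene's median (red) and 30 of 32 PNO values below it (blue), and the deepest blue columns are F2 PNO library 1 and F2 IUO library 4.

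The 8 genes varied together from library to library. The correlation of each gene's log2 FPKM with the mean z-score of the other 7 ran from r = 0.89 to 0.98 over 24 libraries (median 0.95), and from 0.69 to 0.94 over the 22 libraries left without the pair that stood apart. After the group means were removed it ran from 0.92 to 0.98, and from 0.61 to 0.88 when the pair was left out as well. Over the 10 F2 libraries left without that pair it ran from 0.21 to 0.89. These are descriptions, since the libraries share groups and the genes were chosen for a shared difference.

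The low values of the members in the pair of F2 libraries were shared with other genes, a set chosen after its values were seen. Of 13677 genes with a mean of at least 1 FPKM, 350 (2.56%) were more than 2 times below the lowest other F2 library in both F2 PNO library 1 and F2 IUO library 4, and 0 genes were more than 2 times above the highest. The 350 included 6 of the 8 members, all but Elfn2 and Strn. The other 344 genes were also uneven in F1, which was not used to choose them. Their median log2 difference in F1 IUO against PNO was 0.43, with 308 of 344 above 0 (89.5%), beside 0.05 and 56.2% over all 13677 genes. In F1 PNO against SAL it was -0.35 with 10.2% above 0, beside -0.04 and 43.8%, and in F1 IUO against SAL it was 0.11 with 67.4% above 0, beside 0.02 and 54.9%. Relative to each gene's median over the 24 libraries, the 344 genes lay at 0.21 to 0.47 in the F1 IUO libraries and at -0.28 to 0.00 in the F1 PNO libraries, and the members at 0.57 to 0.66 and -0.51 to -0.17. Genes are not independent replicates, and no cause of the shared pattern was tested.

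**Figure D4:**
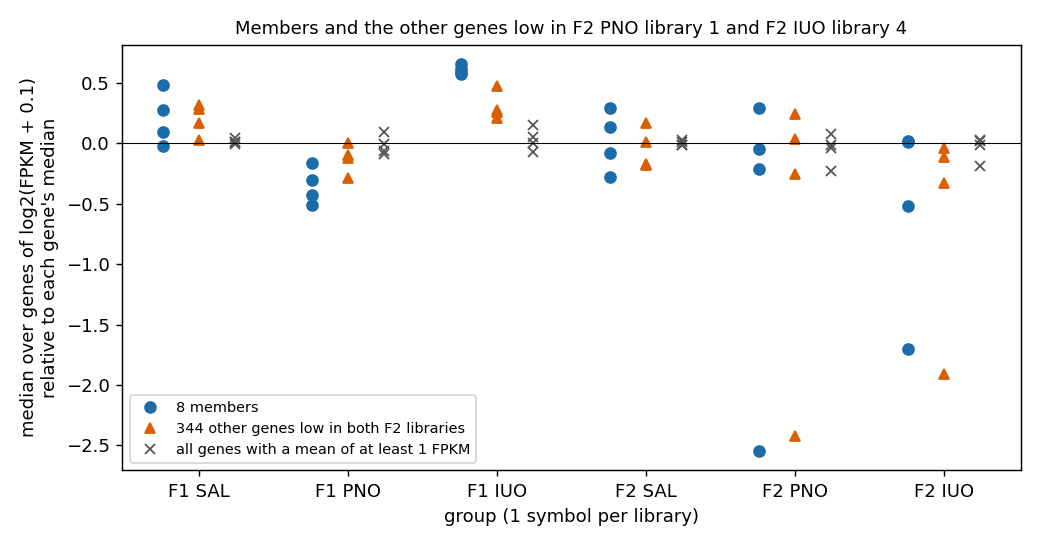
Median over genes of log2(FPKM + 0.1) relative to each gene's own median (y axis) in every library, by group (x axis), for the 8 members (circles), the 344 other genes that were low in both F2 libraries (triangles) and all genes with a mean of at least 1 FPKM (crosses). In F1, where neither library lies, the triangles are at 0.21 to 0.47 in IUO and at -0.28 to 0.00 in PNO.

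Marker levels in the pair of libraries were uneven. In F2 PNO library 1, 8 of 8 cortical excitatory markers and 7 of 12 pan-neuronal markers were below all 10 other F2 libraries, and 7 of 11 oligodendrocyte lineage markers were above them. In F2 IUO library 4 the corresponding counts were 2 of 8, 1 of 12 and 0 of 11. The share of all genes outside the range of the 10 other F2 libraries was not computed. Many genes of any kind were low there. Of 13677 genes, 1344 in F2 PNO library 1 and 668 in F2 IUO library 4 were more than 2 times below the lowest other F2 library. Summed endothelial markers were lowest in the pair, at 6.78 and 9.69 FPKM against 11.85 to 20.36, with Cldn5 at 0 in both, whereas summed striatal projection neuron markers (1532.55 and 1475.24) lay inside the range of 697.36 to 1648.6. Mitochondrially encoded genes summed to 320859 FPKM in F2 PNO library 1, more than in any other library, and to 239136 in F2 IUO library 4, against 162132 to 250756 in the other F2 libraries. In F2 IUO library 4, 4 of 8 microglial markers were above all 10 other F2 libraries, against 1 of 8 in F2 PNO library 1. The part of these differences, and of RNA quality, in the members' low values was not tested.

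Genes outside the set that followed it most closely were sought among those with a mean of at least 1 FPKM. Over 24 libraries the most alike were Pdzd2 (r = 0.99, rho = 0.93), Prrc2b, Pcdh1, Dnmt3a, Stox2, Trio, Pcnx1, Tnik, Wdfy3 and Hectd4 (r = 0.97). Dnmt3a encodes a de novo DNA methyltransferase, Tnik a kinase of the postsynaptic density and Pcdh1 a protocadherin. Dnmt3a averaged 21.8 ± 2.19 FPKM (SD, n = 4) in F1 IUO, 12.1 ± 1.15 in F1 PNO, with F1 SAL at 16.5 ± 1.96. The 5 most opposed were Ndufb11 (r = -0.86, rho = -0.74), Trappc1, Esd, Uqcrh and Atp5pd (r = -0.83). Of these, Ndufb11, Uqcrh and Atp5pd encode subunits of mitochondrial respiratory chain or ATP synthase complexes. Uqcrh averaged 400.1 ± 41.8 FPKM in F1 IUO and 535.3 ± 9.72 in F1 PNO.

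The order of likeness changed without the pair of libraries. Over 22 libraries, 5 of the 10 most alike genes were shared with those above (Dnmt3a at r = 0.94 and rho = 0.94, Prrc2b, Pdzd2, Pcdh1 and Hectd4), while Ptprt, Ubr4, Slc4a8, Socs7 and Abhd2 entered. None of the 5 most opposed was shared, Tmbim4 (r = -0.88, rho = -0.87), Hsbp1, Psma2, Eif1 and Cnih1 taking their places. Over the 12 F2 libraries alone, 5 of 10 were shared with the 24-library list (Trio, Tnik, Pdzd2, Pcdh1 and Prrc2b), with Tulp4 first at r = 0.99 and rho = 0.98. Those 12 include the pair. Over the 10 F2 libraries without it, 2 of 10 were shared (Pcdh1 and Trio) and 0 of the 5 most opposed. The median r over all genes was 0.20 for 24 libraries and 0.06 for 22. It was 0.29 for the 12 F2 libraries and 0.06 for the 10 without the pair.

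**Figure D5:**
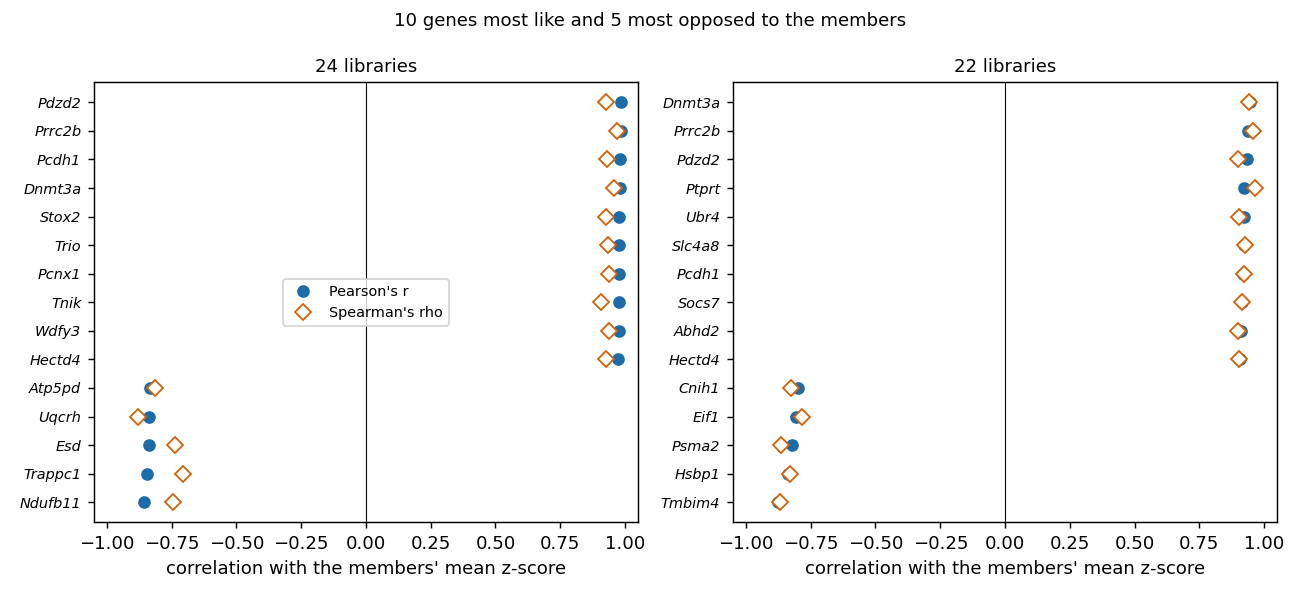
Correlation (x axis, from -1 to 1) of log2(FPKM + 0.1) with the mean z-score of the 8 members for the 10 most alike and 5 most opposed genes (y axis), over 24 libraries on the left and over 22 on the right, as Pearson's r (filled circles) and Spearman's rho (open diamonds). The most alike gene is Pdzd2 at r = 0.99 on the left and Dnmt3a at r = 0.94 on the right.

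Partners and relatives of the members were followed in 7 lists with 79 genes, of which 76 were in the tables and all 76 were tested. In F1, which is given without a test, the 11 Shc adaptors and partners stood closest to the members: 10 of 11 were higher in IUO than in PNO (median log2 difference 0.42), 5 without overlap, and 10 of 11 were lower in PNO than in SAL (median -0.22). The medians of the other 6 lists for IUO against PNO ran from -0.04 in the 16 striatin complex genes to 0.19 in the 17 heparan sulfate genes. Over the 7 lists, 11 of 76 genes were wholly above PNO in IUO and 4 wholly below, beside 6.26% and 4.2% of all genes. Against SAL, 0 of 76 were wholly above in IUO (1.17% of all genes) and 0 wholly below. In F2, 0 of 76 passed an adjusted p of 0.05 in any of the 3 comparisons by limma.

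At an unadjusted p under 0.05 in F2, 7 of 76 list genes were called for IUO against PNO (6 higher, 1 lower), 14 for IUO against SAL (8 higher, 6 lower) and 10 for PNO against SAL (4 higher, 6 lower), which is to be read beside the 7.07%, 8.49% and 10.8% of all genes. Without the pair of libraries the counts were 8 (3 higher, 5 lower), 12 (8 higher, 4 lower) and 8 (3 higher, 5 lower). The values of single list genes below are from all libraries. Without the libraries that stood apart, 33 of the 33 differences that the naming rule gives kept their direction, and 5 became more than 1.5 times smaller, of Hs3st2, Shc1 and Atxn7 once each and of Cic in both comparisons. Elfn1, the sister of Elfn2, had the smallest p of any list gene: it averaged 12.3 ± 2.0 FPKM (SD, n = 4) in F2 PNO and 22.6 ± 4.89 in F2 SAL. Its log2 difference was -0.85 ± 0.20 (SE), with an adjusted p of 0.34 by limma. For IUO against PNO, Elfn1 differed by 0.65 ± 0.21 (adjusted p of 0.60 by limma). Among the receptors that Elfn proteins bind, Grm8 (0.59 ± 0.24) and Grm4 (-0.45 ± 0.19) differed in opposite directions for IUO against SAL, at adjusted p values of 0.57 and 0.58.

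In the heparan sulfate list, Hs3st2, a 3-O-sulfotransferase, was higher in F2 IUO. It was at 32.49, 22.15, 16.43 and 20.6 FPKM in F2 IUO, 3.2, 10.1, 7.95 and 23.2 in F2 PNO, and 8.23, 17.88, 6.79 and 7.68 in F2 SAL. The IUO values overlapped both other groups. The log2 difference was 1.24 ± 0.31 (SE) against SAL (adjusted p 0.41) and 1.32 ± 0.50 against PNO (adjusted p 0.64) by limma. Without the pair of libraries the difference of Hs3st2 from PNO was 0.88. Ext1, a heparan sulfate polymerase subunit, differed by 0.35 ± 0.13 against SAL, and Hs6st1 by -0.32 ± 0.14 in IUO and -0.34 ± 0.15 in PNO against SAL. Sulf2 differed by -0.32 ± 0.12 in PNO against SAL. All of these had adjusted p values of 0.41 or above.

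In the striatin list, Ppp2cb, a catalytic subunit of protein phosphatase 2A, differed by 0.44 ± 0.12 (SE) for F2 IUO against SAL (adjusted p 0.45) and by 0.32 ± 0.11 for PNO against SAL (adjusted p 0.40, both by limma). Strip2 (-0.81 ± 0.24) and Mob4 (0.31 ± 0.10) followed for IUO against SAL, and Strn4 (-0.40 ± 0.14) and Pdcd10 (0.55 ± 0.21) for PNO against SAL. For IUO against PNO the gene with the smallest p in that list was Cttnbp2 (-0.35 ± 0.17), which was at -0.22 without PNO library 2. In the ataxin-1 list, Cic, which encodes Capicua, differed by 0.44 ± 0.18 for IUO against PNO and by -0.56 ± 0.19 for PNO against SAL. These values of Cic were 0.27 without the pair of libraries and -0.37 without PNO library 1. Atxn10 differed by 0.47 ± 0.14 for IUO against PNO and by 0.35 ± 0.10 for IUO against SAL, Atxn7 by -1.0 ± 0.41 for IUO against SAL and Rbm17 by 0.24 ± 0.10 for PNO against SAL. Without IUO library 4 the difference of Atxn7 was -0.60. The smallest adjusted p of these genes was 0.386 (Cic, PNO against SAL).

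The remaining lists held few calls. Ppp1r1b, in the list of neurabins and protein phosphatase 1, averaged 266.2 ± 106.5 FPKM (SD, n = 4) in F2 IUO and 420.1 ± 49.3 in F2 SAL. Its log2 difference was -0.74 ± 0.25 (SE), with an adjusted p of 0.54 by limma, and for IUO against PNO it was -0.47 ± 0.28, or -0.28 without IUO library 3. In that list Ppp1r10 had the smallest p for PNO against SAL (-0.48 ± 0.22). In the inhibitory synapse list, the GABA-A receptor subunit gene Gabra4 differed by -0.55 ± 0.24 and Lhfpl5 by 0.59 ± 0.22 for IUO against PNO, Shisa7 by -0.40 ± 0.18 for IUO against SAL, and Gabra4 by 0.55 ± 0.25 for PNO against SAL. In the Shc list, the adaptor Grb2 differed by 0.22 ± 0.10 for IUO against PNO, while Shc1 had the smallest p for IUO against SAL (-0.66 ± 0.39), a difference that was -0.22 without IUO library 4. All of these had adjusted p values above the threshold.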

How the data were processed

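Total RNA from the NAc of P14 pups was sequenced by the authors with Illumina protocols. Per the labels, the processing tools named are HISAT2, StringTie, SAMtools and edgeR, with no versions, and the genome build is not given in the sources used here. The deposited values used are FPKM per gene, rounded to 2 decimals, normalised by the authors for transcript length and library size, with transcripts of all samples merged. How reads of related genes (the Shc, striatin and Ndst families) were split is not given. With no counts used, depth is unknown, and no counting interval is given. FPKM were analysed as log2(FPKM + 0.1), which understates changes of low genes, for genes with at least 0.1 FPKM in 4 of 8 libraries, with limma 3.58.1 (R 4.3.3, lmFit and eBayes with trend) in the 2 groups compared, and Benjamini-Hochberg adjustment over all genes tested. Calls use 0.05. Exact permutation tests were two-sided. The limma script was tested on simulated data. Tables and plots used Python 3.11.15. Groups came from the labels, and n counts pups of separate litters. The members, lists and motifs were chosen with earlier results of these data known. All 8 members are named, and list genes with an unadjusted p under 0.05 in F2 (at most 3 a list and comparison, by p), or else the one with the smallest p. One list gene that this rule names is not reported here. Alternatives were a pseudocount of 1, no filter, a filter at 1 FPKM, rescaling to the upper quartile, one fit of all 24 libraries, a replicate block and leaving out each library. Leaving out F2 PNO library 1 together with F2 IUO library 4 (also for the members' likeness, with group means removed) was added after seeing the data.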

Additional observations from a re-analysis of the deposited data

Results flagged for a closer look

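In each group of 4 libraries, the gap of the lowest or highest library to its neighbour was divided by the group's range, and ratios above Dixon's 95% critical value are given here, for 8 genes in 6 groups. Of 48 such groups 9 passed it, where chance would give about 2.4, and genes that vary together are not independent. F2 PNO library 1 was lowest for Shc3 (ratio 0.904), Strn (0.863) and Atxn1 (0.915), and F2 IUO library 4 for Shc3 (0.875) and Lhfpl4 (0.928). These are the libraries that stood apart over all genes. In F2 SAL, library 1 was highest for Lhfpl4 (0.867). In F1, library 1 of IUO was highest for Atxn1 (0.961), library 3 of PNO highest for Ndst1 (0.884) and library 2 of PNO lowest for Lrrc58 (0.943). The F1 cases lie in narrow groups, with Atxn1 in IUO between 7.44 and 8.25 FPKM, Ndst1 in PNO between 6.67 and 8.49, and Lrrc58 in PNO between 5.15 and 7.12.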

How the results depend on the processing

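The F1 differences kept their direction for 8 of 8 genes in all 3 comparisons under every alternative run. The count of genes wholly above saline in IUO ran from 4 to 7 over the fits that leave out 1 library, 7 being without F1 SAL library 4. That count was 3 with upper-quartile rescaling. In F2, 0 of 8 genes passed the adjusted threshold under any alternative, with adjusted p values of 0.59 to 1.0 for IUO against PNO, 0.31 to 1.0 for IUO against SAL and 0.23 to 0.98 for PNO against SAL. The replicate block gave unadjusted calls for 0, 3 and 1 of the 8 genes in these comparisons and left the medians at 0.08, -0.59 and -0.66. The numbers 1 to 4 do not mark a shared litter, and same-numbered libraries correlated at -0.33 to 0.20 in their deviations from the group means, with 6 of 24 pairs over 0.1. Unadjusted calls for IUO against PNO were 3 without the pair of libraries that stood apart and 0 to 2 leaving out 1 library. For IUO against SAL they were 1 with all 24 libraries in one fit and 1 to 2 leaving out 1 library. For PNO against SAL they were 2 with a pseudocount of 1, 2 with upper-quartile rescaling, 2 in the fit of all 24 libraries and 0 to 2 leaving out 1 library.

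In F2 IUO against PNO, Shc3 reversed to -0.046 with a pseudocount of 1 and to -0.0408 with upper-quartile rescaling. Without the pair of libraries, Shc3 was at -0.45, Elfn2 at -0.13, Atxn1 at -0.11, Ndst1 at -0.0556 and Lrrc58 at -0.0328. Leaving out 1 library, the log2 difference ran from -0.75 to 0.31 for Shc3, -0.84 to 0.33 for Ppp1r9a, -0.11 to 0.84 for Lhfpl4, -0.27 to 0.26 for Elfn2, -0.71 to 0.15 for Strn, -0.50 to 0.47 for Atxn1, -0.50 to 0.64 for Ndst1 and -1.04 to 1.32 for Lrrc58. In F2 PNO against SAL, it ran from -0.84 to 0.22 for Shc3, -0.75 to 0.31 for Ppp1r9a, -0.72 to 0.13 for Strn, -0.99 to 0.0445 for Ndst1 and -2.0 to 0.0235 for Lrrc58, the highest values being without F2 PNO library 1. The causes were not tested beyond the libraries left out. Upper-quartile rescaling shifted the median of all genes by 0.06 or less. Of the 10 genes most like the members, 6 were shared after group means were removed and 9 after rescaling. Of the 5 most opposed, 3 were shared after group means were removed and 0 after rescaling.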
